A study of Mus musculus with 15 samples.

Results

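The 10 genes described here are 5 immune checkpoint receptors (Pdcd1, Ctla4, Lag3, Tigit and Havcr2) and 5 of their ligands (Cd274, Pdcd1lg2, Cd80, Cd86 and Lgals9), chosen by symbol among the 24982 genes counted by RNA-Seq in whole mouse aortas. All 10 were found in the count files. The 15 libraries came from male wild-type C57BL/6 mice (C57BL/6J in the study's methods) aged 10 months, with 5 libraries in each of 3 groups; the labels name no animals or batches, so the P values measure the spread between these libraries. Every mouse, controls included, received aldosterone at 200 µg/kg/d together with salt (0.9% NaCl and 0.2% KCl) for 7 days (Aldo-salt), after 2 weeks of recovery from surgery. Control mice had a sham operation, orchiectomized mice had their testes removed, and the third group was orchiectomized and carried a pellet of dihydrotestosterone (DHT), an androgen. No group went without Aldo-salt, and an aorta holds smooth muscle, endothelium, adventitial cells, fat and resident or infiltrating leukocytes, so each value is a mixture over these cells. In such bulk RNA, fewer cells of a type and less RNA per cell cannot be told apart.

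Checkpoint receptors are membrane proteins of activated T cells and other leukocytes that dampen the response once their ligand is bound. PD-1 (Pdcd1) binds PD-L1 (Cd274) and PD-L2 (Pdcd1lg2), CTLA-4 (Ctla4) competes with the costimulatory receptor CD28 for CD80 and CD86 on antigen-presenting cells, LAG-3 (Lag3) binds MHC class II, TIGIT binds nectin family proteins, and TIM-3 (Havcr2) binds galectin-9 (Lgals9) among other partners. TIM-3 and CD86 are also made by macrophages and dendritic cells, and PD-L1 and galectin-9 by many cells that are not leukocytes.

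DHT acts through the androgen receptor, which binds DNA at pairs of the hexamer AGAACA, which reads TGTTCT on the other strand. Promoters of 8 of the 10 members were matched by symbol in RefSeq (GRCm38.p6), from 250 bases before to 50 bases after a transcript start. Cd86 and Lag3 had none. For Cd80 and Ctla4 this window lies inside the gene as annotated by GENCODE (chr16:38455561-38496335 and chr1:60887000-60915832). The hexamer was found on either strand in 3 of these 8, and in 19.0% of 32851 promoters of the same length. The promoters of these 3 genes are shown with the hexamer in capitals. That of Havcr2 is shown beside them with no capitals because it holds none. Havcr2 was the receptor with the largest differences in log2 level, given below, after orchiectomy and with DHT against without. A match of 6 letters is not a binding site, and its absence says nothing of the receptor.

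Pdcd1 (chr1:94052504-94052803, minus strand, GRCm38.p6): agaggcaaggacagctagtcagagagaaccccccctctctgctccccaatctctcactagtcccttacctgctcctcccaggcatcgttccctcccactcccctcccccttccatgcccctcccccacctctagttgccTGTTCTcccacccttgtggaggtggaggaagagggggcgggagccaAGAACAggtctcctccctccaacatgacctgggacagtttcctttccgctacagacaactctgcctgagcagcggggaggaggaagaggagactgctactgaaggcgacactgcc
Cd80 (chr16:38458683-38458982, plus strand, GRCm38.p6): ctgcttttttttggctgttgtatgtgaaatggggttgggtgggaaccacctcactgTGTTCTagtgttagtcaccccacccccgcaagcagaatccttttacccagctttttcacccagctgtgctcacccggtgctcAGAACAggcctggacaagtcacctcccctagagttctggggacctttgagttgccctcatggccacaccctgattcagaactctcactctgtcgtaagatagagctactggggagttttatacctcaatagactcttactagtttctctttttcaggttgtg
Pdcd1lg2 (chr19:29410669-29410968, plus strand, GRCm38.p6): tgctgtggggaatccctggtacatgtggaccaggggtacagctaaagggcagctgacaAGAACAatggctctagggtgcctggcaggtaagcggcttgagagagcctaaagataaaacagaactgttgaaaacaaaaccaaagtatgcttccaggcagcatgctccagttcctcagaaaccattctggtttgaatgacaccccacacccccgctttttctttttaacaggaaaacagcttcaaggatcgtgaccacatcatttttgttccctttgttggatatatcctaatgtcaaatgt
Havcr2 (chr11:46454681-46454980, plus strand, GRCm38.p6): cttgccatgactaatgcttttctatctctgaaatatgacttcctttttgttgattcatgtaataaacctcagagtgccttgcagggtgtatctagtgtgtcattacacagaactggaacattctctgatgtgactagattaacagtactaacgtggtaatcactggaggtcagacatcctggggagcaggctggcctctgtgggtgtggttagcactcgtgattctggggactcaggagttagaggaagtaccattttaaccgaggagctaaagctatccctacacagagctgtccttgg

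All values rest on reads counted per gene symbol, with 8268957 to 13816864 reads assigned to genes per library. A count of 0 in 1 library allows a level of up to 0.206 to 0.384 CPM (counts scaled to library size with TMM factors), the level of 3 counts, and this covers counting error only. The markers of the other cells differed between the groups and between the orchiectomized mice. The summed level of 14 T cell genes was 8.77 to 22.8 CPM in control, 14.9 to 95.5 CPM in orchiectomized and 8.19 to 12.1 CPM in DHT-treated mice, and that of 10 B cell genes 6.42 to 15.5, 9.99 to 199 and 5.03 to 14.5 CPM. Orchiectomized replicate 2 had the most B cell RNA. Its summed neutrophil and macrophage levels were also the highest, but in each case mostly through 1 gene: Ltf was at 1114 CPM there against at most 4.19 CPM elsewhere, while the other 9 neutrophil genes summed to 37.7 CPM against 33.7 and 29.7 CPM in orchiectomized replicates 1 and 3, and Lyz2 was at 947 CPM against at most 338 CPM, while the other 11 macrophage genes summed to 685 CPM, within the range of the other libraries. Orchiectomized replicate 3 had the most T cell RNA and 97.2 CPM over 10 thymus genes, against at most 8.51 CPM in any other library. Rag1, the recombinase gene of developing lymphocytes, reached 612 counts there. The thymic epithelial genes Ccl25, Prss16, Psmb11 and Foxn1 were also highest there, at 59, 57, 13 and 3 counts against at most 26, 5, 1 and 1 in any other library. Acta2, the smooth muscle actin that marks the vessel wall, had at least 41631 counts in each library. Results of the members and of the pathway genes that lean on either library are given with and without it.

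The members differed widely in how often they were counted. Over all 15 libraries the 5 receptors had 1178 counts, of which Lag3 alone had 923, and the 5 ligands had 11654 counts, of which Cd274 and Lgals9 had 10655. Pdcd1 had 83 counts in all, Havcr2 111, Ctla4 39, Pdcd1lg2 24 and Tigit 22, and these 5 failed the minimum-count filter that left 14121 genes for the main test. Pdcd1lg2 was at 0 in 6 of the 15 libraries, Tigit in 5 and Ctla4 in 3.

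Per length of transcript, the level in control mice (mean CPM per kb ± SD, n = 5) was highest for Lgals9 at 29.4 ± 8.11, followed by Cd274 at 7.63 ± 2.40. Lag3 at 2.71 ± 1.17 and Cd86 at 1.48 ± 0.672 came next, and their ranges of mean ± SD overlapped. Cd80 followed at 0.549 ± 0.232 CPM per kb. The remaining 5 lay at or under 0.145 CPM per kb (Havcr2 0.145 ± 0.0716, Pdcd1 0.131 ± 0.0433, Ctla4 0.0809 ± 0.0516, Tigit 0.0651 ± 0.0999 and Pdcd1lg2 0.0475 ± 0.0509), and the order among these 5 was within their spread.

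The first question was whether loss of androgens, and its return with DHT, moved the receptors. Havcr2, the TIM-3 gene (chr11:46454935-46481255 in mm10), differed most on the log2(CPM + 0.5) scale, after orchiectomy and with DHT against without. Its counts were 2, 6, 3, 4 and 7 among the controls, 9, 37, 10, 11 and 7 after orchiectomy alone, and 4, 2, 4, 1 and 4 in the DHT-treated mice. In counts, every orchiectomized library was at or above the highest library of the other groups, and replicate 2 with 37 stood far above the rest; in CPM the lowest orchiectomized library, at 0.569, was below the highest control library, at 0.638. In normalised read counts, Havcr2 was at 0.395 ± 0.195 CPM in control, 1.29 ± 1.12 CPM in orchiectomized and 0.314 ± 0.161 CPM in DHT-treated orchiectomized mice (mean ± SD, n = 5). On the log2(CPM + 0.5) scale, which understates changes of such low genes, Havcr2 was higher after orchiectomy by 0.86 (P = 0.0159, two-sided exact permutation test) and lower with DHT than without (-0.99, P = 0.0079 by the same exact test, the smallest that 5 against 5 libraries allow). The orchiectomized and DHT-treated values did not overlap. Without orchiectomized replicate 2, both differences remained past 0.05, at 0.55 (exact permutation test, P = 0.0397) and -0.68 (P = 0.0159). DHT-treated and control mice were not told apart for Havcr2 (-0.13, exact permutation P = 0.476).

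**Figure D1:**
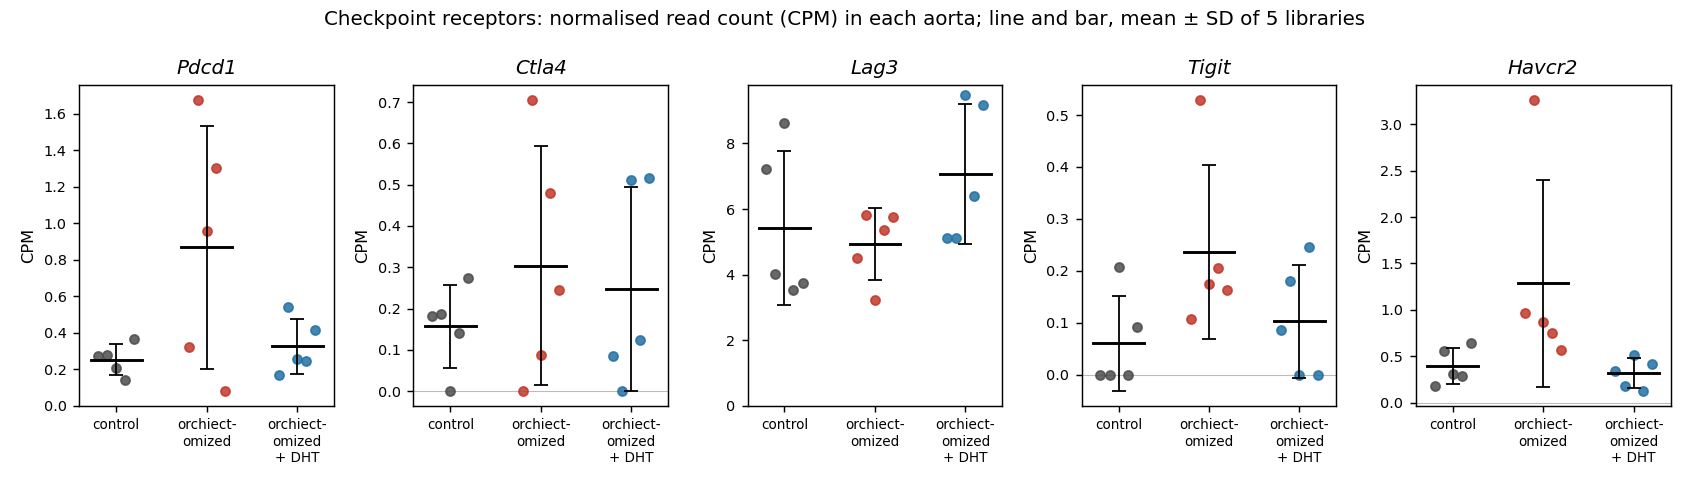
Normalised read counts (CPM, vertical axes starting at or just below 0) of the 5 receptors in each of the 15 aortas, by group; points are libraries, and the line and bar are the mean ± SD of 5. Havcr2 is between 0.569 and 3.27 CPM in orchiectomized mice and at most 0.512 CPM in DHT-treated mice, while Lag3 lies between 3.23 and 9.47 CPM with all groups overlapping.

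Since Havcr2 failed the count filter, it entered an edgeR quasi-likelihood fit only when all 19989 genes with at least 1 count were kept. There its log2 fold change was 1.62 (SE 0.54, edgeR adjusted P = 0.260) after orchiectomy and -1.94 (SE 0.56, edgeR adjusted P = 0.0694) with DHT. Without orchiectomized replicate 2 these values were 0.96 (SE 0.42, edgeR adjusted P = 0.676), which no longer passed an unadjusted 0.01, and -1.29 (SE 0.44, edgeR adjusted P = 0.150), which did. Havcr2 was the 1 member of 10 with an unadjusted edgeR P under 0.01 in that fit of either comparison, against 3.76% of all genes after orchiectomy and 8.59% with DHT; in DHT-treated against control mice 0 of 10 members passed, against 2.52% of genes. Neither value holds after adjustment over all genes.

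After orchiectomy 0 of the 12 macrophage genes tested passed an unadjusted edgeR P of 0.01, with a median log2 fold change of 0.12 beside 0.04 over all genes, and with DHT against without 4 were lower, with a median of -0.76. The summed level of 12 macrophage genes was 514 to 1201 CPM in control, 809 to 1633 CPM in orchiectomized and 524 to 876 CPM in DHT-treated mice, and the macrophage receptor gene Csf1r had 491 to 1356, 758 to 1740 and 394 to 886 counts. Havcr2 gave 0.441 ± 0.149 counts per 1000 macrophage marker counts in control, 1.07 ± 0.565 in orchiectomized and 0.444 ± 0.219 in DHT-treated mice (mean ± SD, n = 5). With Lyz2 left out of the list the ratios were 0.604 ± 0.190, 1.89 ± 1.63 and 0.597 ± 0.289, and the highest orchiectomized library, at 4.77, was replicate 2. Some markers of other myeloid cells were higher after orchiectomy (all genes 3.22%). Of 6 tested dendritic cell genes 1 passed an unadjusted edgeR P of 0.01 (Itgax, the CD11c gene, log2 fold change 2.01, edgeR adjusted P = 0.244), and the 9 listed genes summed to 16.4 to 27.5 CPM in control and 20.4 to 64.6 CPM in orchiectomized mice, most in replicate 2. Of 5 tested neutrophil genes 4 passed, S100a8 with 3.74 (edgeR adjusted P = 0.0960), and without Ltf the list summed to 2.43 to 4.59 CPM in control, 9.81 to 37.7 CPM in orchiectomized and 4.40 to 14.2 CPM in DHT-treated mice. With DHT against without, 4 of the 5 neutrophil genes were lower (all genes 9.72%). The part of these cells in the Havcr2 result was not tested. Measured against the mean log2 level of the macrophage list, the Havcr2 difference was 0.62 after orchiectomy (P = 0.0873 in an exact permutation test) and -0.37 with DHT (P = 0.429 by the exact test), so neither passed 0.05; relative to that list 2.15% of all genes passed after orchiectomy and 46.2% with DHT. Against Ptprc, the pan-leukocyte gene CD45, the sign turned, to -0.20 and 0.92.

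Pdcd1, the PD-1 gene (chr1:94038305-94052553 in mm10), had 3, 3, 2, 2 and 4 counts in the control mice. It had 3, 19, 11, 19 and 1 counts after orchiectomy alone, and 2, 6, 2, 2 and 4 with DHT. Orchiectomized replicates 2, 3 and 4 were above every other library, and replicates 1 and 5 of the same group were within or below the control range. The mean was 0.253 ± 0.0836 CPM in control, 0.869 ± 0.665 CPM in orchiectomized and 0.325 ± 0.149 CPM in DHT-treated mice (n = 5). The difference of 0.71 on the log2(CPM + 0.5) scale after orchiectomy did not pass (exact permutation test, P = 0.127), nor did that of -0.59 with DHT (P = 0.167 by the exact test). Without orchiectomized replicate 5 both passed, at 0.98 (exact permutation P = 0.0159) and -0.85 (exact permutation P = 0.0317). Without replicate 2 they were 0.50 (exact permutation P = 0.230) and -0.38 (exact permutation P = 0.333), and without replicate 3 they were 0.64 and -0.52.

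The 3 orchiectomized mice with the most Pdcd1 counts were also those with the most T cell RNA, at 72.1, 95.5 (replicate 3, which also had the most thymus RNA) and 55.4 CPM over the 14 genes, against 14.9 and 24.8 CPM in replicates 1 and 5. Cd3e, a subunit of the T cell receptor complex, followed the same split with 67, 73 and 50 counts against 7 and 19. Pdcd1 gave 21.8 ± 11.4 counts per 1000 T cell marker counts in control, 16.3 ± 9.18 in orchiectomized and 30.7 ± 12.8 in DHT-treated mice (mean ± SD, n = 5). Group totals, which give more weight to libraries with more T cell marker counts, were 17.2, 16.8 and 31.6 per 1000.

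Ctla4 and Tigit were at the edge of detection. Ctla4 had 2, 2, 0, 2 and 3 counts in control, 0, 8, 1, 7 and 3 in orchiectomized and 1, 0, 4, 1 and 5 in DHT-treated mice, and the groups overlapped. It also overlaps the pseudogene Rpl18-ps1 by 525 bases on the same strand, whose reads could have been left out of either. Tigit had 0, 0, 2, 0 and 1 counts in control, 1, 6, 2, 3 and 2 in orchiectomized and 1, 2, 0, 2 and 0 in DHT-treated mice. Tigit was found in all 5 orchiectomized libraries and in 2 of the 5 control ones, a difference of 0.38 on the log2(CPM + 0.5) scale that did not pass (exact permutation test, P = 0.0556). For Ctla4 the difference was 0.23 (exact permutation P = 0.405). With DHT against without, the differences were -0.28 for Tigit (exact permutation P = 0.159) and -0.09 for Ctla4 (exact permutation P = 0.786).

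Lag3 (chr6:124904361-124911705 in mm10) was the best counted of the receptors. Its levels were 7.23, 4.02, 8.64, 3.53 and 3.73 CPM in control, 4.51, 5.83, 3.23, 5.35 and 5.77 CPM in orchiectomized and 5.12, 5.12, 9.47, 6.40 and 9.18 CPM in DHT-treated mice. The 3 groups overlapped, and the library with the most T cell RNA, orchiectomized replicate 3, had the lowest Lag3 level of all. That library also had the most thymus RNA (97.2 CPM over 10 genes), and how much of its T cell RNA came from thymus was not tested. The fitted log2 fold change was -0.13 (SE 0.29, 95% CI -0.75 to 0.49, edgeR adjusted P = 0.889) after orchiectomy, 0.51 (SE 0.29, 95% CI -0.11 to 1.13, edgeR adjusted P = 0.332) with DHT against without, and 0.38 (SE 0.29, edgeR adjusted P = 0.627) in DHT-treated against control mice.

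T cell RNA differed so much between the groups that most genes differed relative to it: on the log2(CPM + 0.5) scale relative to the list, 73.7% of all 19989 genes passed an exact permutation P of 0.05 after orchiectomy, 85.1% with DHT against without and 7.73% in DHT-treated against control mice. Values of the receptors relative to T cell RNA are given with that in view. Relative to T cell RNA, Lag3 was low in the orchiectomized mice and high with DHT. There were 453 ± 259 Lag3 counts per 1000 T cell marker counts in control, 149 ± 113 in orchiectomized and 682 ± 228 in DHT-treated mice (mean ± SD, n = 5), up to 1000 in DHT-treated replicate 5, where Lag3 alone had as many counts as the 14 T cell genes together. Against the mean log2 level of the list, Lag3 was lower after orchiectomy (-1.39, exact permutation test, P = 0.0476) and higher by 1.96 with DHT than without (P = 0.0079 by the exact test). Leaving out each library in turn gave 1.62 to 2.23 for the latter (exact permutation P from 0.0079 to 0.0238), and an exact permutation P from 0.0317 to 0.0873 for the former. With shares of 73.7% and 85.1% among all genes, these are not results about Lag3, whose level on its own did not pass in either comparison.

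Lag3 starts 1975 bases downstream of the end of Ptms on the same strand. Ptms, the gene of the small nuclear protein parathymosin, is abundant in these aortas, with 8197 to 14246 counts per library against 37 to 89 for Lag3. Lag3 gave 5.28 ± 1.47 counts per 1000 Ptms counts in control, 5.13 ± 1.21 in orchiectomized and 5.04 ± 0.863 in DHT-treated mice (mean ± SD, n = 5). Relative to Ptms, Lag3 differed by -0.03 after orchiectomy (P = 0.865 in an exact permutation test), -0.05 with DHT against without (exact permutation P = 0.817) and -0.08 in DHT-treated against control mice (exact permutation P = 0.722). The part of Ptms in the Lag3 counts was not tested; the counts do not show where in a gene the reads lie. The comparison with Ptms was chosen after the values were seen.

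**Figure D2:**
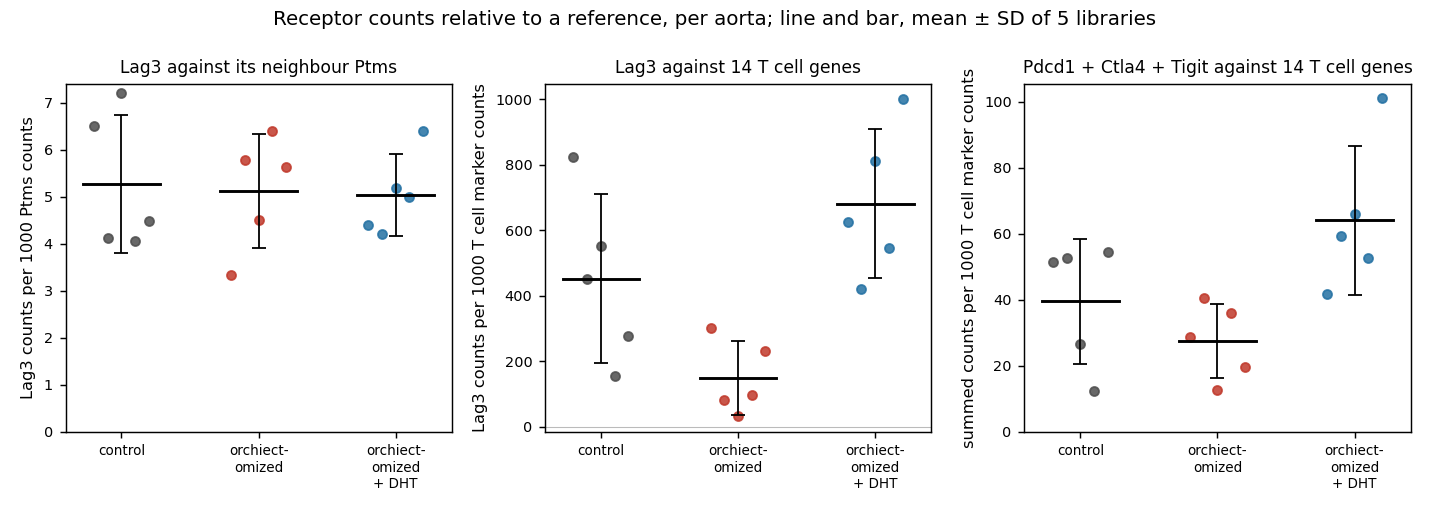
Counts of Lag3 per 1000 counts of its neighbour Ptms (left) and per 1000 counts of 14 T cell genes (middle), and summed Pdcd1, Ctla4 and Tigit counts per 1000 T cell marker counts (right), in each aorta; line and bar are the mean ± SD of 5 libraries. Lag3 stays at 5.04 to 5.28 per 1000 Ptms counts on average in the 3 groups, while per 1000 T cell marker counts it is 453, 149 and 682. T cell RNA itself differs between the groups. Relative to it 73.7% of all genes pass an exact permutation P of 0.05 after orchiectomy and 85.1% with DHT against without.

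Pdcd1, Ctla4 and Tigit together gave 39.5 ± 19.0 counts per 1000 T cell marker counts in control, 27.5 ± 11.4 in orchiectomized and 64.1 ± 22.5 in DHT-treated mice (mean ± SD, n = 5). Every DHT-treated library, at 41.7 or more, was above every orchiectomized one, at 40.4 or less, and the margin was small. On the log2(CPM + 0.5) scale relative to the list, the differences with DHT against without were 0.92 for Pdcd1 and 1.41 for Ctla4 (exact permutation test, P = 0.0079 for each) and 1.22 for Tigit (exact permutation P = 0.0159). After orchiectomy they were -0.62 for Pdcd1 (exact permutation P = 0.0794), -1.09 for Ctla4 with no overlap (exact permutation P = 0.0079) and -0.94 for Tigit (exact permutation P = 0.0317). With shares of 85.1% and 73.7% among all genes, these are not results about the receptors. The levels of these 3 receptors had not passed on their own, while the fitted median of 11 tested T cell genes was -2.12 in the comparison with DHT.

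The ligands were counted well enough for the main fit, except Pdcd1lg2. After orchiectomy, 0 of the 5 members tested (Lag3 and 4 ligands) passed an unadjusted edgeR P of 0.01, against 3.22% of all genes tested, and 0 members at an adjusted P under 0.05, where the share of all genes was 0% as well. At an unadjusted P under 0.05 in that fit, 0 of the 5 members and 1692 of the 14121 genes passed. With DHT against without, 1 of the 5 passed, which was Cd86 (lower), against 9.72% of all genes, and 0 passed after adjustment, against 4.72%. In DHT-treated against control mice 0 of 5 passed, against 3.53%, and 0 after adjustment, against 0.262%. By the exact test of single levels at P under 0.05, 1 of the 10 members passed after orchiectomy (Havcr2), 2 with DHT against without (Havcr2 and Cd86) and 1 in DHT-treated against control mice (Lgals9), where 7.25%, 15% and 11.2% of the 19989 genes passed. The median fitted log2 fold change of the 4 tested ligands was 0.14 after orchiectomy, -0.34 with DHT against without and -0.56 in DHT-treated against control mice, beside 0.04, -0.02 and -0.00 over all genes.

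**Figure D3:**
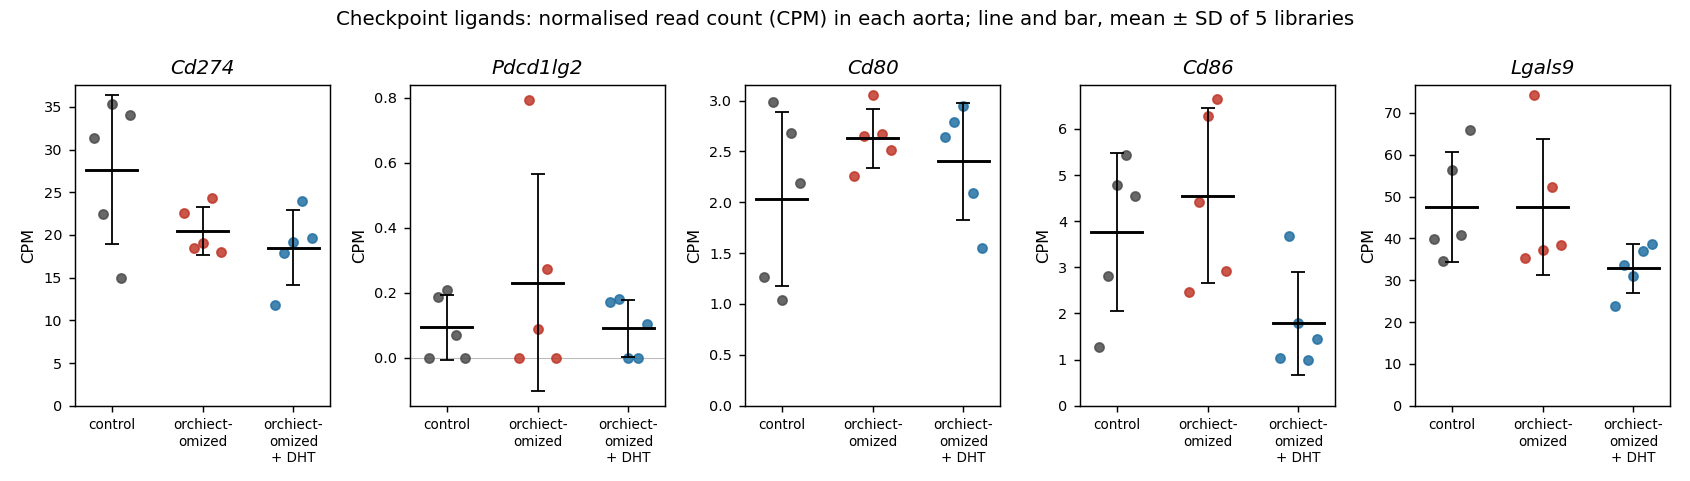
Normalised read counts (CPM, vertical axes starting at or just below 0) of the 5 ligands in each of the 15 aortas, by group; points are libraries, and the line and bar are the mean ± SD of 5. All but 1 of the DHT-treated libraries have Cd86 at or under 1.79 CPM while the orchiectomized ones lie between 2.47 and 6.65 CPM, and Cd274 is highest in 3 control libraries.

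**Figure D4:**
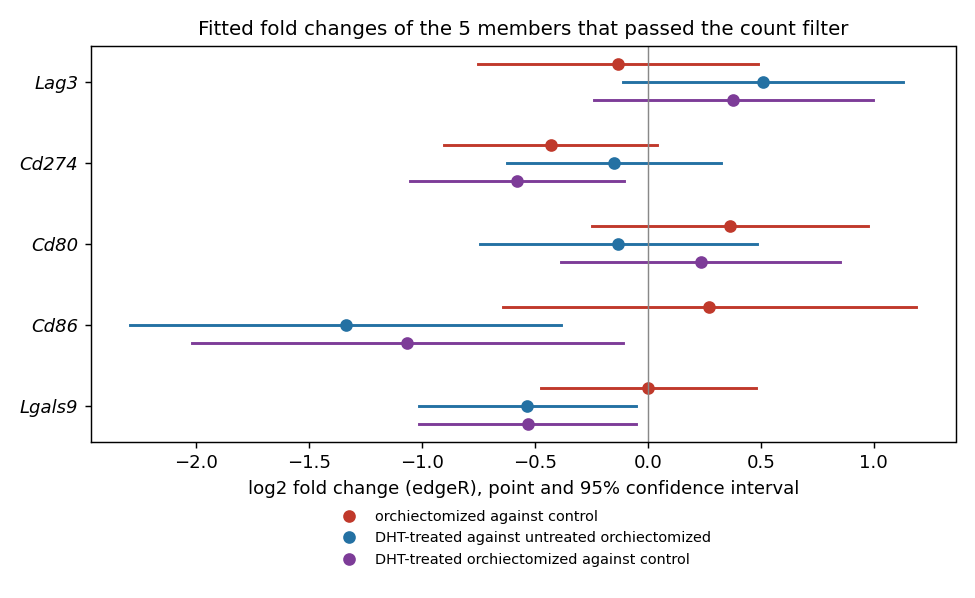
Fitted log2 fold changes (horizontal axis; points) with 95% confidence intervals (lines) of Lag3, Cd274, Cd80, Cd86 and Lgals9 in the 3 comparisons, from 1 edgeR model of 15 libraries. The interval of Cd86 with DHT against without runs from -2.29 to -0.38, and that of every member after orchiectomy includes 0.

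Cd86 (chr16:36603869-36666081 in mm10), the costimulatory ligand of CD28 and CTLA-4 on antigen-presenting cells, had the largest fitted change of the 5 members in the main fit. It was at 1.27, 2.80, 4.79, 5.44 and 4.55 CPM among the controls and 2.47, 4.42, 6.28, 6.65 and 2.92 CPM after orchiectomy. In the DHT-treated mice it was at 1.02, 3.69, 1.79, 0.985 and 1.44 CPM, lower than every orchiectomized library except for replicate 2 at 3.69 CPM. With DHT against without, the log2 fold change was -1.34 (SE 0.45, unadjusted edgeR P = 0.00916, adjusted P = 0.0986), and the exact permutation test of the level gave -1.17 (P = 0.0238). After orchiectomy the change was 0.27 (SE 0.43, 95% CI -0.64 to 1.19, edgeR adjusted P = 0.836), and in DHT-treated against control mice it was -1.07 (SE 0.45, edgeR adjusted P = 0.377).

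The edgeR call of Cd86 was close to its threshold. It was lost without any 1 of 11 libraries (control replicates 2, 3, 4 and 5, orchiectomized replicates 2, 3 and 4, and DHT-treated replicates 1, 3, 4 and 5), with edgeR P values of up to 0.0314 and log2 fold changes from -1.34 to -1.13. It was also lost under RLE size factors (log2 fold change -1.31), in a fit of the compared groups alone (-1.32) and with all genes kept (-1.30), while DESeq2 gave -1.32 and an adjusted P of 0.0484.

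Macrophage markers fell with Cd86 in part. As given above for Havcr2, 4 of the 12 macrophage genes were lower with DHT than without, and 0 were higher (all genes 9.72%). The log2 fold changes of these 4 ran from -1.40 to -0.77, beside -1.34 for Cd86. Those of the other genes of the list ran from -0.94 to 0.24. The list mean thus mixes genes that fell about as much as Cd86 with genes that changed little. Cd86 gave 4.18 ± 1.46 counts per 1000 macrophage marker counts in control, 4.17 ± 1.55 in orchiectomized and 2.38 ± 1.04 in DHT-treated mice (mean ± SD, n = 5), and without Lyz2 in the list 5.79 ± 2.19, 6.40 ± 1.88 and 3.22 ± 1.43. Relative to the mean log2 level of the list, Cd86 was lower with DHT than without (-0.55, exact permutation test, P = 0.0476), and P ranged from 0.0159 to 0.0952 (exact permutation test) when each library was left out. Of all genes, 46.2% passed that threshold relative to this list, and 0.981% passed it as lower. In DHT-treated against control mice 4.62% passed and Cd86 did not (-0.50, exact permutation P = 0.0794). Against Csf1r alone the difference with DHT was -0.39 (exact permutation P = 0.0794), and against Ptprc its sign turned, to 0.74 (exact permutation P = 0.0556). Dendritic cell genes, 3 of 6 of which were lower with DHT at an edgeR P under 0.01 (all genes 9.72%), summed to 20.4 to 64.6 CPM in orchiectomized and 15.2 to 20.5 CPM in DHT-treated mice. The part of dendritic cells in the Cd86 result was not tested.

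**Figure D5:**
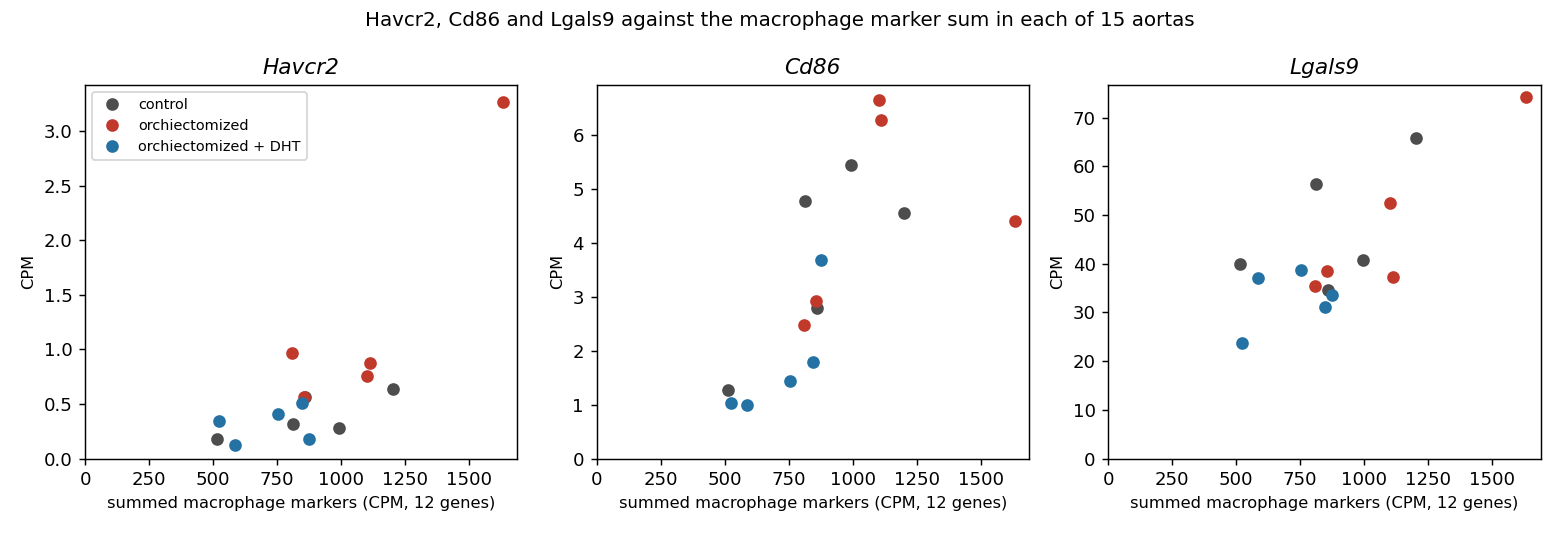
Havcr2, Cd86 and Lgals9 (CPM, vertical axes) against the summed CPM of 12 macrophage genes (horizontal axis) in each of the 15 aortas, coloured by group. Orchiectomized replicate 2, at 1633 CPM of macrophage genes, 947 CPM of which is Lyz2, has the highest Havcr2 (3.27 CPM) and Lgals9 (74.2 CPM) but not the highest Cd86.

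Cd80, the other ligand of CD28 and CTLA-4, showed no such difference. It had 14, 32, 10, 38 and 24 counts in control, 21, 30, 35, 39 and 31 in orchiectomized and 31, 31, 23, 17 and 15 in DHT-treated mice, with overlap between all groups. Its fitted log2 fold change with DHT against without was -0.13 (SE 0.29, 95% CI -0.74 to 0.48, edgeR adjusted P = 0.844), and after orchiectomy it was 0.37 (SE 0.29, edgeR adjusted P = 0.621). The difference between Cd80 and Cd86 in their response was not tested.

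Lgals9, the galectin-9 gene (chr11:78962974-78984946 in mm10) and the best counted of the 10, was at 39.9, 34.6, 56.3, 40.8 and 65.8 CPM in the control mice. It was at 35.3, 74.2, 37.2, 52.4 and 38.4 CPM after orchiectomy alone and at 23.8, 33.5, 31.1, 37.1 and 38.7 CPM with DHT. The DHT-treated libraries lay at the low end of the range of the others and overlapped both groups. Orchiectomy gave a log2 fold change of 0.00 (SE 0.22, 95% CI -0.47 to 0.48, edgeR adjusted P = 0.997). With DHT it was -0.53 against untreated orchiectomized mice (SE 0.23, edgeR adjusted P = 0.185) and -0.53 against control mice (SE 0.23, edgeR adjusted P = 0.378), and neither passed an unadjusted 0.01. The exact test of the level gave -0.49 (exact permutation P = 0.0635) and -0.50 (exact permutation P = 0.0397). The latter was lost without control replicate 3 or 5 or DHT-treated replicate 1, 2 or 3, with differences of -0.43, -0.38, -0.39, -0.52 and -0.49 and exact permutation P values of 0.0635 to 0.0952. Per 1000 macrophage marker counts, Lgals9 was at 56.6 ± 16.6 in control, 43.0 ± 5.51 in orchiectomized and 47.0 ± 10.8 in DHT-treated mice (mean ± SD, n = 5), and without Lyz2 in the list at 78.3 ± 24.9, 69.5 ± 23.4 and 63.8 ± 15.7.

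Cd274, the PD-L1 gene (chr19:29367455-29388095 in mm10), was at 31.4, 22.4, 35.4, 15 and 34.1 CPM in the control mice. It was at 22.6, 18.5, 19.1, 24.3 and 18.0 CPM after orchiectomy alone and at 11.8, 17.9, 19.2, 24.0 and 19.6 CPM with DHT. The 3 control libraries above 30 CPM exceeded every library of the other groups, and control replicate 4 was lower than all but 1 of them. The log2 fold change was -0.43 after orchiectomy (SE 0.22, edgeR adjusted P = 0.446), -0.15 with DHT against without (SE 0.22, edgeR adjusted P = 0.751) and -0.58 in DHT-treated against control mice (SE 0.22, edgeR adjusted P = 0.350). Without control replicate 4 the first and last passed an unadjusted edgeR P of 0.01, at -0.61 (adjusted P = 0.177) and -0.73 (adjusted P = 0.157).

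PD-L1 is made by endothelium, and relative to 10 endothelial genes the Cd274 difference was -0.49 after orchiectomy (P = 0.0873 in an exact permutation test), 0.20 with DHT against without (exact permutation P = 0.357) and -0.30 in DHT-treated against control mice (exact permutation P = 0.222). Of these 10 genes 0 were called after orchiectomy and 3 were lower in each DHT comparison at an edgeR P under 0.01. Among all genes 3.22% were called after orchiectomy, 9.72% with DHT against without and 3.53% in DHT-treated against control mice. The summed level of the 10 endothelial genes was 953 to 1376 CPM in control, 1077 to 1622 CPM in orchiectomized and 845 to 1043 CPM in DHT-treated mice. The genes whose log2 level followed Cd274 most closely over the 15 libraries were L3hypdh (Pearson r = 0.943), Idh1 (0.943), the cytosolic isocitrate dehydrogenase, and Ephx2 (0.940), an epoxide hydrolase, with Spearman rho of 0.904 to 0.950, given as a description over libraries of 3 groups. Adipocyte genes, a list added after these values were seen, summed to 2882 to 6710 CPM in control, 3139 to 5199 CPM in orchiectomized and 3191 to 5866 CPM in DHT-treated mice. Their median log2 fold change was -0.43 after orchiectomy, 0.36 with DHT against without and -0.03 in DHT-treated against control mice. Of 10 tested, 1 was lower after orchiectomy and 1 higher with DHT against without at an edgeR P under 0.01. Cd274 gave 5.50 ± 0.357 counts per 1000 adipocyte marker counts in control, 4.91 ± 0.811 in orchiectomized and 3.78 ± 0.361 in DHT-treated mice (mean ± SD, n = 5). The SD of this ratio in control mice was 6.49% of its mean, against 31.5% for the Cd274 level itself, but in orchiectomized mice it was 16.5% against 13.6%, and in DHT-treated mice 9.54% against 23.8%. Relative to the adipocyte list, Cd274 was lower with DHT than in control mice with no overlap (-0.35, exact permutation test, P = 0.0079), and lower than without DHT (-0.40, exact permutation P = 0.0159), where 3.16% and 9.48% of all genes passed 0.05 relative to the list. After orchiectomy the sign turned, to 0.05 (exact permutation P = 0.698), where 8.66% of all genes passed. A difference relative to the list also holds the change of the list. On its own, the Cd274 level differed by -0.54 in DHT-treated against control mice (exact permutation P = 0.0952). With DHT against without it differed by -0.17 (exact permutation P = 0.484). Cd274 shares 11055 bases with the antisense gene AC119228.1, and the strand setting of the counting is not given in the sources used here.

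Pdcd1lg2, the PD-L2 gene that lies 22823 bases downstream of Cd274, had 0, 2, 2, 1 and 0 counts in control, 0, 9, 1, 4 and 0 in orchiectomized and 2, 2, 0, 0 and 1 in DHT-treated mice. The groups overlapped, and no comparison of its level had an exact permutation P under 0.548. Relative to the macrophage list the smallest was 0.206 (0.40 with DHT against without, exact permutation test). It shares 6412 bases with the antisense gene A930007I19Rik.

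Likeness to other genes was computed for the members with at least 10 counts in every library. Lag3 was most like Wrap53 (r = 0.949), Mrpl45 (0.938) and Tor2a (0.935), with Spearman rho of 0.921 to 0.964, and Lgals9 like Prkch (0.938), Cavin2 (0.932) and Dram2 (0.920), with rho of 0.868 to 0.871, each over 15 libraries that share the group differences. Cd80 was most like Zfp472 (r = 0.923), Exosc10 (0.892) and Zfp553 (0.848), but by rank these were at 0.821, 0.589 and 0.529. None of the T cell or macrophage markers was among the 3 genes most like Lag3 or Lgals9.

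Other genes of these pathways were followed as 4 lists. Of 22 tested genes of other checkpoint and costimulation pairs, 4 rose after orchiectomy and 0 fell at an edgeR P under 0.01 (all genes 3.22%), and with DHT against without 11 were lower and 0 higher (all genes 9.72%), 6 of them at an adjusted P under 0.05. Their median was 0.32 after orchiectomy and -0.62 with DHT. Btla, an inhibitory receptor of lymphocytes, was at 0.848 ± 0.370 CPM in control, 3.94 ± 4.09 CPM in orchiectomized and 0.661 ± 0.296 CPM in DHT-treated mice, with log2 fold changes of 2.19 (SE 0.63, edgeR adjusted P = 0.280) and -2.57 (SE 0.66, adjusted P = 0.0387). Without orchiectomized replicate 2 they were 1.38 (edgeR adjusted P = 0.613), no longer past an unadjusted 0.01, and -1.77 (edgeR adjusted P = 0.0928). Cd226, the activating receptor that competes with TIGIT for its ligands, was lower with DHT, with a log2 fold change of -3.24 (SE 0.73, edgeR adjusted P = 0.0244).

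Partners of the members were among these genes. H2-Ab1, a class II chain and thus part of the ligand of LAG-3, went from 91.7 ± 31.2 CPM in control to 216 ± 158 CPM in orchiectomized and 78.9 ± 27.2 CPM in DHT-treated mice, with log2 fold changes of 1.23 (SE 0.39, edgeR adjusted P = 0.297) and -1.45 (SE 0.39, edgeR adjusted P = 0.0481). Without orchiectomized replicate 2 these fell to 0.66 (edgeR adjusted P = 0.651), which was not called, and -0.87 (edgeR adjusted P = 0.105). Hmgb1, a nuclear protein that TIM-3 can bind when released, was higher after orchiectomy by 0.34 (SE 0.09, edgeR adjusted P = 0.261) and lower with DHT (-0.42, SE 0.09, edgeR adjusted P = 0.0248). Vsir, the gene of the inhibitory protein VISTA, was lower with DHT (-0.89, SE 0.21, edgeR adjusted P = 0.0300), at 33.3 ± 7.11 CPM against 61.6 ± 17.0 CPM. Icosl, the ligand of the costimulatory receptor ICOS, the adhesion protein Nectin3, the pairs' inhibitory receptors Cd200r1 and Sirpa, Cd47, which binds the protein of Sirpa, and the class II chain H2-Aa were also lower with DHT, with log2 fold changes from -1.57 (Cd200r1) to -0.42 (Sirpa), and H2-Eb1 was higher after orchiectomy by 1.11 (SE 0.38, edgeR adjusted P = 0.309). Without orchiectomized replicate 2 the calls of Icosl (-0.78), Cd47 (-0.45), Sirpa (-0.38) and H2-Aa (-0.67) with DHT and of H2-Eb1 after orchiectomy (0.55) were lost, and without replicate 3 those of Cd200r1 (-1.40), Cd47 (-0.50) and Sirpa (-0.35). H2-Aa was called after orchiectomy without replicate 3 (1.21) but not with all libraries. Of the 6 genes with an adjusted P under 0.05 with DHT, 1 kept it without replicate 2 (Cd226, edgeR adjusted P = 0.0396) and 1 without replicate 3 (Hmgb1, edgeR adjusted P = 0.0439). Cd200, the most abundant of these genes beside Hmgb1, did not pass, with fold changes of 0.14 in both comparisons.

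Downstream, Ptpn6 (SHP-1) and Inpp5d (SHIP-1), leukocyte phosphatases of inhibitory signalling, were 2 of 4 tested genes called, both lower with DHT (all genes 9.72%), with log2 fold changes of -1.61 (SE 0.37, edgeR adjusted P = 0.0266) and -1.14 (SE 0.30, edgeR adjusted P = 0.0433). Without orchiectomized replicate 2 they were -1.20 (edgeR adjusted P = 0.0574) and -0.89 (edgeR adjusted P = 0.104), and both were still called. Ptpn11 (SHP-2) and Csk, the abundant members of that list, did not pass. Among 9 tested transcription factors linked to T cell exhaustion, Tcf7, which marks naive and memory T cells, was the 1 called (Nr4a1 and Nfatc1, the most abundant, were not), with 2.33 after orchiectomy (SE 0.55, edgeR adjusted P = 0.244) and -3.08 with DHT (SE 0.58, edgeR adjusted P = 0.0133), so the list had 1 of 9 called in each, near the 9.72% of all genes with DHT. Without orchiectomized replicate 3, Tcf7 was still called, at 1.5 (edgeR adjusted P = 0.274) and -2.24 (edgeR adjusted P = 0.0235). Of 10 tested genes between interferon gamma and PD-L1, 0 were called after orchiectomy, and Jak1, a kinase of the interferon receptor, and Cmtm6, which keeps PD-L1 on the cell surface, were lower with DHT against both untreated orchiectomized and control mice (all genes 9.72% and 3.53%). For Jak1 the fold changes were -0.39 (SE 0.12) and -0.41 (SE 0.13), and for Cmtm6 -0.25 (SE 0.08) and -0.28 (SE 0.08), with edgeR adjusted P values of 0.0894 to 0.234. The calls against untreated orchiectomized mice were lost for both without orchiectomized replicate 2 (-0.40 and -0.23) or 3 (-0.28 and -0.21). Stat3, the most abundant of the list, did not pass. Of 11 tested T cell genes, 8 were higher after orchiectomy and, with DHT against without, 10 were lower at an edgeR P under 0.01, and of 9 B cell genes 7 and 9 (all genes 3.22% and 9.72%). The part of T and B cells in the changes of Btla, Tcf7, Ptpn6 and the class II genes was not tested. For the other cell types, with DHT against without (all genes 9.72%), 1 of 3 tested regulatory T cell genes, 1 of 2 cytotoxic and NK cell genes, 2 of 7 fibroblast genes and 1 of 3 lymph node stroma genes were lower at an edgeR P under 0.01 and 0 were higher, with median log2 fold changes of -0.33, -1.59, -0.46 and -0.65. Of 8 smooth muscle genes and 2 erythroid genes 0 passed in either direction, with medians of 0.43 and 0.29. After orchiectomy, 1 of the 2 cytotoxic and NK cell genes was higher, and 0 genes of the other 5 lists passed.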

How the data were processed

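Gene expression was measured by RNA-Seq of poly(A)-selected RNA from 15 mouse aortas. For each library the authors deposited counts of reads by gene symbol, which are whole numbers and not normalized. The processing notes of the labels name the mm10 genome build, STAR, Cufflinks and DESeq2; their roles, the counting program and its strand setting are not given in the sources used here. The 2 entries that are not genes (reads on no gene, 6.26% to 14.4% of counted reads, or on several, 1.34% to 1.97%) were left out. Groups and replicate numbers were taken from the labels. Gene coordinates came from GENCODE M21 (mm10) and promoters from RefSeq.

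Counts were fitted with edgeR 4.0.16 in R 4.3.3 (TMM factors, filterByExpr with a minimum count of 10 and a total of 15, 1 quasi-likelihood model with 3 group means over 15 libraries), with P values adjusted by Benjamini-Hochberg across every gene in the fit. Calls used an unadjusted P under 0.01, the threshold the study gives, with an adjusted P under 0.05 beside it. Single members were tested by exact permutation (two-sided) of log2(CPM + 0.5), 5 libraries against 5, and relative to the mean log2(CPM + 0.5) of a marker list; these 60 P values are not adjusted, and the same relative values were tested for all genes as a background. A count of 0 was read as up to 3 counts. Depth was 8268957 to 13816864 reads on genes per library, which limits the rare members, while the spread between libraries is the larger error for the well-counted ones.

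The members, lists and tests were chosen with earlier results of these data known. All 10 members are named, with the genes of 4 pathway lists that had an unadjusted P under 0.01 in any comparison and the 2 most abundant of each list; of marker lists only defining genes are named. Lists of regulatory T cells, cytotoxic and NK cells, smooth muscle, fibroblasts, lymph node stroma and erythroid cells were measured too. Alternatives were DESeq2 1.42.0, RLE size factors, other filters, a fit of the compared groups alone, the replicate number as a block, a robust fit, other pseudocounts (0.1 and 1), no TMM, other references and leaving out each library; Ptms and the adipocyte list as references, and the fits of pathway genes and of Havcr2 among all genes without orchiectomized replicate 2 or 3, and the macrophage list without Lyz2, were added after the values were seen. Figures were drawn with matplotlib 3.10.9.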

Additional observations from a re-analysis of the deposited data

Results flagged for a closer look

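Of 30 sets of 5 libraries (10 members in 3 groups), 2 held a library that lay further from the others than Dixon's 95% criterion allows, where chance flags about 1 in 20 sets. Both were orchiectomized replicate 2, the library with the most B cell RNA. Havcr2 was at 3.27 CPM there (37 counts), with the next library of the group at 0.967 CPM. Tigit was at 0.530 CPM there (6 counts), with the next at 0.206 CPM. Without this library, the Havcr2 difference after orchiectomy was 0.55 on the log2(CPM + 0.5) scale (exact permutation test, P = 0.0397) and that of Tigit 0.26 (exact permutation test, P = 0.0873). The cause was not tested.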

How the results depend on the processing

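The number of members called by edgeR after orchiectomy was 0, became 1 (Havcr2) with all genes of at least 1 count, and was 0 to 1 when each library was left out (1, Cd274, without control replicate 4). With DHT against without it was 1 (Cd86) and became 0 under RLE size factors, with only the groups compared and at an adjusted P under 0.05. It was also 0 with at least 10 counts in every library, but that filter left Cd86 untested, since its lowest count was 8. It was 0 to 1 when each library was left out. In DHT-treated against control mice it was 0, and 0 to 1 when each library was left out (1, Cd86, without control replicate 1 or DHT-treated replicate 2; 1, Cd274, without control replicate 4). Exact tests of levels passed 0.05 for 1, 2 and 1 members in the 3 comparisons; without TMM the first was 2, and leaving out each library gave 1 to 2, 2 to 3 and 0 to 2. Relative to markers the counts of members past 0.05 were 3, 5 and 0, and leaving out each library gave 1 to 5, 4 to 5 and 0 to 1. Relative to the T cell list 73.7%, 85.1% and 7.73% of all genes passed, and relative to the macrophage list 2.15%, 46.2% and 4.62%. With 1 reference gene the counts of members were 1 after orchiectomy and 1 in DHT-treated against control mice. With Ptprc they were 8 with DHT against without and 7 in DHT-treated against control mice. The share of all genes relative to Ptprc or to 1 reference gene was not computed, so these counts are not results about the members. Ptprc itself was at 13.8 ± 5.17 CPM in control, 32.5 ± 17.7 CPM in orchiectomized and 7.04 ± 1.25 CPM in DHT-treated mice.

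The replicate numbers did not pair the libraries: deviations of same-numbered libraries correlated from -0.466 to 0.463 (median 0.017), and in 4 of 30 checks (each library against each other group) a library correlated best with its own number. With the replicate number as a block, 285 and 1074 genes were called in the first 2 comparisons in place of 454 and 1373, Cd86 kept its call with DHT (log2 fold change -1.31), and sign flips within the block gave 0 members in each comparison, since 5 pairs cannot reach 0.05.

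Values close to 0 changed sign. For Lgals9 after orchiectomy the fitted change was -0.022 under RLE size factors, -0.048 with all genes, -0.0031 with at least 10 counts in every library, -0.025 with only the groups compared, -0.016 with the replicate block, -0.022 by DESeq2 and -0.22 to 0.12 when each library was left out; its level was 0.033 without TMM and -0.19 to 0.11. Leaving out each library gave fitted changes of -0.28 to 0.095 for Lag3 after orchiectomy and -0.19 to 0.017 for Cd80 with DHT. It gave levels after orchiectomy of -0.18 to 0.11 for Lag3, -0.0099 to 0.45 for Cd86 and -0.014 to 0.33 for Pdcd1lg2, and with DHT against without of -0.24 to 0.073 for Ctla4 and -0.33 to 0.012 for Pdcd1lg2. Pdcd1lg2 in DHT-treated against control mice was 0.0057 with a pseudocount of 0.1, 0.0018 without TMM and -0.060 to 0.065.

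Relative to markers, after orchiectomy, Pdcd1lg2 was 0.17 with a pseudocount of 0.1 and -0.22 to 0.13 when each library was left out, and Cd86 -0.054 against Csf1r alone and -0.059 to 0.19. Ptprc as the reference turned Havcr2 to -0.20, Cd80 to -0.68 and Cd86 to -0.78 after orchiectomy, Havcr2 to 0.92 and Cd86 to 0.74 with DHT against without, and Cd274 to 0.32 and Lgals9 to 0.35 in DHT-treated against control mice, where leaving out each library gave -0.24 to 0.031 for Lgals9. Ptms turned Lag3 to -0.046 and -0.078 in the DHT comparisons, and the adipocyte list turned Cd274 to 0.048 after orchiectomy and -0.40 with DHT against without. The causes were not tested. A count of 0 allows up to 0.206 to 0.384 CPM, so lower levels of Ctla4, Tigit and Pdcd1lg2 in the libraries at 0 were not detectable at this depth.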
